A study of Gallus gallus with 4 samples.

Results

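The genes described here are 5 chicken genes on the W chromosome and the genes on the Z chromosome named as their partners. The pairs are HINTW with HINT1, LOC374195 (the W copy of CHD1) with CHD1, SPIN1L with SPIN1, UBAP2L2 with UBAP2, and HNRNPKL with HNRNPK. They were taken by symbol from the probe sets of the array. Of the 10 genes, 9 had a probe set, out of 13008 genes with a symbol on the array, and these 9 were read by 22 probe sets. No probe set was named for HINT1, so that pair had no Z partner measured under the symbol. The nearest measured gene was HINT2, a Z gene whose gene table entry carries the synonyms HINT1Z, HINTZ and PKCIZ, and its values are given beside HINTW, a choice made after the probe sets were seen.

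The birds were 17 weeks old and came from inbred CB congenic lines with a White Leghorn origin. RNA was taken from whole gonads of 8 females and 8 males and mixed in equal amounts into pools of 4 birds. This gave 2 ovary pools and 2 testis pools, each read on 1 Affymetrix Chicken Genome Array. No transgene or treatment is stated, and a pool hides the spread between its birds.

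In birds the female is ZW and the male ZZ, so that a hen carries a single Z and the W passes only from mother to daughter. The W descends from the same ancestral chromosome as the Z and has lost most of its genes. The pairs that remain are called gametologs, and the W copies of CHD1 and SPIN1 are widely used to sex birds from DNA. In a tissue of females a W gene can add transcripts to those of its Z partner, while a male has Z transcripts alone. In whole organs, fewer cells of a type and less RNA per cell cannot be told apart.

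Values are the deposited log2 expression values, and a difference of 1 is a 2-fold change. Levels of different probe sets are not set against each other, because probes bind with different strength. A background level of log2 3.32 was used, the 99th percentile of 689 probe sets for other sequences. Testis was compared with ovary by limma over all 38382 probe sets, and "called" means a Benjamini-Hochberg adjusted p under 0.05. The 4 arrays had between 55.1% and 55.7% of probe sets above background. Of 8 listed ovary markers 7 were measured and all 7 were called higher in ovary, and all 8 testis markers were called higher in testis. Of the 4 measured of 5 adrenal markers, CYP21A1, TH and MC2R were called higher in ovary. The summed log2 level of the 4 lay between 31.4 and 35.9 in the ovary pools and between 8.94 and 8.96 in the testis pools, where all 4 were at background. Of the 3 measured of 7 blood markers, the haemoglobin genes HBA1 (log2 testis minus ovary -5.75) and HBAD (-4.15) were called higher in ovary and PTPRC, a leukocyte gene, in testis (0.92). The summed level of these 3 lay between 29.4 and 31.8 in ovary and between 21.3 and 22.0 in testis. Of 4 smooth muscle markers 0 were called by limma, and 0 passed at an unadjusted p under 0.05. The part of these other cells in the results below was not tested.

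All 5 W genes had at least 1 probe set that was bright in both ovary pools and dim in both testis pools. A male has no W, so a W transcript could differ only toward ovary, and that direction is a given of the design. Of their 15 probe sets, 8 were called higher in ovary, 0 in testis and 7 in neither (limma). At an unadjusted p under 0.05 the counts were 9 and 0, beside 8205 and 7924 of all 38382 probe sets. Among all probe sets tested, 18.2% were called higher in ovary, 17.4% higher in testis and 35.6% in either direction. Of the 15, 11 were at or below background in both testis pools and 2 in all 4 pools. Without either testis pool fewer than 8 were called. A fit with 1 ovary pool takes its spread from the testis pools alone, mostly at background here, so calls gained in it are not read.

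**Figure D1:**
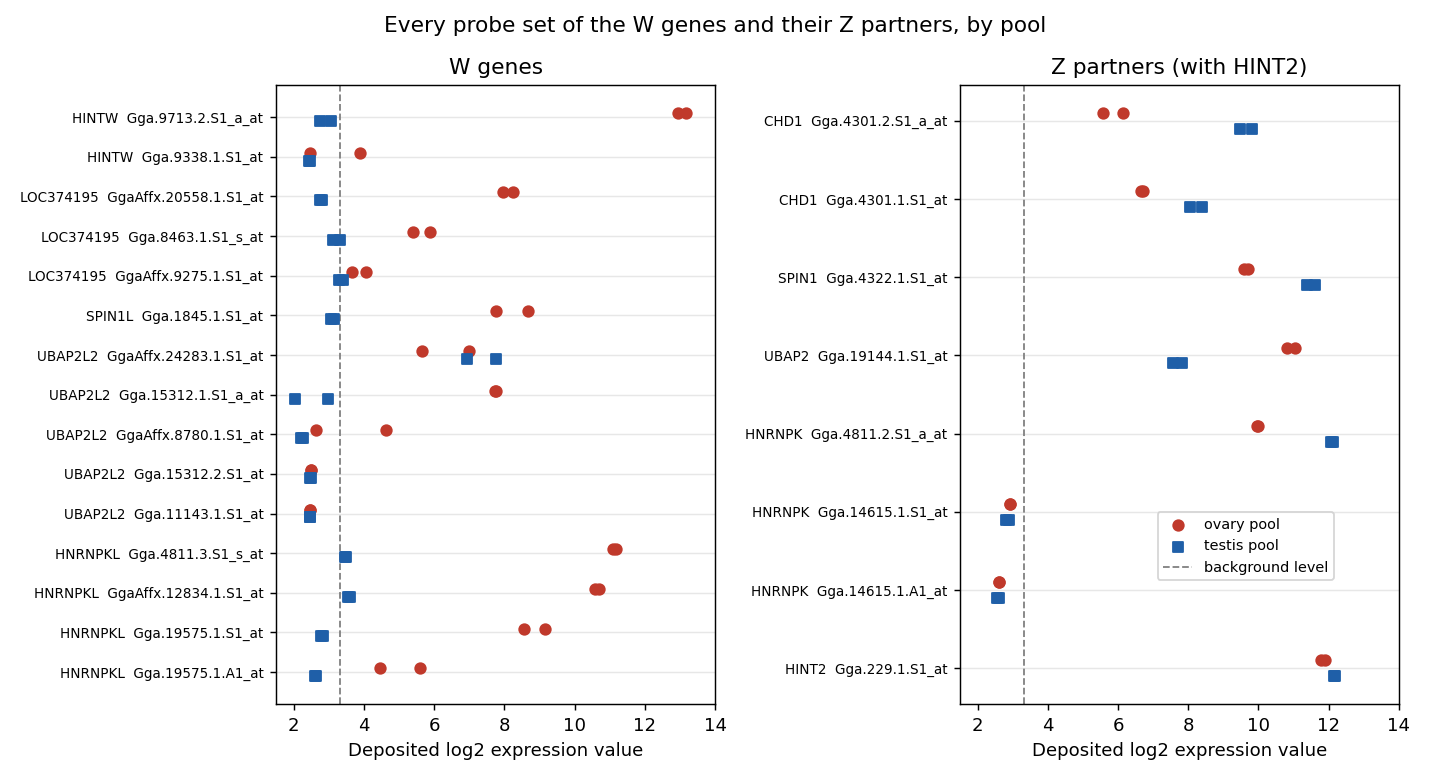
Deposited log2 values (horizontal axis) of every probe set (rows) of the W genes (left) and Z genes (right). Red circles are the 2 ovary pools, blue squares the 2 testis pools, and the dashed line is the background level of 3.32. HINTW lies near 13 in ovary and below the line in testis, while CHD1, SPIN1 and HNRNPK (brightest probe set) lie further right in testis and UBAP2 in ovary.

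HINTW is the W-linked relative of the histidine triad nucleotide-binding protein HINT1, present on the W in many copies. Its brighter probe set read log2 13.17 and 12.94 in the ovary pools and 2.75 and 3.06 in the testis pools. The organs were far apart, and both testis pools were below background. Ovary was higher by at least 852-fold (limma adjusted p = 0.000884). The other probe set read 3.89 in ovary pool 1, 2.48 in ovary pool 2, and 2.44 and 2.45 in testis. It was above background in 1 pool only and was not called (adjusted p = 0.504). Its difference of testis minus ovary, as read, was -0.032 without ovary pool 1 and -1.44 without ovary pool 2.

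Whether the probe set named HINT2 reads HINT1 or another histidine triad gene on Z was not settled. It read 11.77 and 11.88 in ovary and 12.19 and 12.16 in testis. The organs did not overlap, and testis was higher by 0.34 on the log2 scale (SE 0.053, limma adjusted p = 0.0311), a 1.27-fold difference. The HINT2 call was kept under only 4 of 12 alternatives. It was lost without ovary pool 1 (adjusted p = 0.0677), testis pool 1 (0.199) or testis pool 2 (0.169), and also with no moderation (0.089), a floor (0.0538), dim probe sets left out (0.0525), medians centred (0.154) and pool number as a block (0.0956). HINTW minus HINT2 within an array was 1.40 and 1.06 in the ovary pools and, with HINTW set to background, at most -8.86 and -8.83 in the testis pools.

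CHD1 encodes a chromodomain helicase that remodels nucleosomes at transcribed genes. Its W copy, LOC374195, had 3 probe sets. The brightest read 7.95 and 8.26 in ovary and 2.76 and 2.81 in testis, at least 27.5-fold higher in ovary (limma adjusted p = 0.0015). The second read 5.88 and 5.39 in ovary and 3.13 and 3.31 in testis, at least 4.96-fold higher (adjusted p = 0.0111). In both, every ovary pool lay above every testis pool, and testis was at background. The second has a name ending in _s_at, which marks probes that can match more than 1 transcript. The third read 4.05 and 3.66 in ovary against 3.29 and 3.41 in testis, near background in all pools. It was not called (testis minus ovary -0.51, 95% interval -1.09 to 0.075, adjusted p = 0.155). When testis pool 1 or 2 was left out the second was no longer called (adjusted p = 0.117 and 0.107). The third was called with arrays centred on their medians (adjusted p = 0.0348). With a pool left out its difference of testis minus ovary ran from -0.70 to -0.31.

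CHD1 itself, on Z, went the other way. The probe set brighter over the 4 pools read 5.58 and 6.15 in ovary and 9.47 and 9.81 in testis, a 13.7-fold difference toward testis (log2 3.77, SE 0.29, limma adjusted p = 0.00773). The other read 6.71 and 6.64 in ovary and 8.04 and 8.39 in testis, 2.91-fold higher in testis (log2 1.54, SE 0.15, adjusted p = 0.0125). Both probe sets had all testis values above all ovary values. They differed in size by more than their standard errors. The first was no longer called when testis pool 1 or 2 was left out (adjusted p = 0.0805 and 0.0882). The other was not called when ovary pool 1 or 2 was left out (0.0545 and 0.0587) and with no moderation of the variances (0.0532).

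SPIN1 encodes spindlin, a reader of methylated histone H3 tails that was first described in mouse oocytes. The W copy SPIN1L read 7.75 and 8.68 in ovary and 3.07 and 3.14 in testis. Both testis pools were at background, and ovary was at least 29.7-fold higher (limma adjusted p = 0.00823). The ovary pools differed from each other by more than those of the other W genes' brightest called probe sets (SD 0.66, n = 2). SPIN1 on Z read 9.60 and 9.71 in ovary and 11.38 and 11.60 in testis, 3.58-fold higher in testis (log2 1.84, SE 0.11, adjusted p = 0.00484). The SPIN1 call stayed with each pool left out (adjusted p from 0.0245 to 0.0421), while SPIN1L was no longer called when testis pool 1 or 2 was left out (0.102 and 0.1001).

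HNRNPK encodes a nuclear ribonucleoprotein with KH domains that binds C-rich RNA and DNA. The W copy HNRNPKL was bright in ovary on several probe sets. The brightest, with a name ending in _s_at, read 11.11 and 11.19 in ovary and 3.47 and 3.49 in testis, a 203-fold difference (log2 ovary minus testis 7.67, SE 0.042, limma adjusted p = 0.000341). The next read 10.70 and 10.57 in ovary and 3.54 and 3.60 in testis, a 134-fold difference (adjusted p = 0.000488). Their testis values were just above the background level but below the brightest probe set for other sequences on those arrays (3.82 and 3.88). A male has no W, so these testis readings are not those of a W gene. The 203-fold and 134-fold differences are thus limited by background, although no bound was set.

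The remaining pair of HNRNPKL probe sets came from a single reference sequence. The sense probe set read 8.57 and 9.16 in ovary and 2.79 and 2.83 in testis, at least 46.7-fold higher in ovary (limma adjusted p = 0.00293). The antisense probe set, so marked in its name, read 4.45 and 5.605 in ovary and 2.65 and 2.60 in testis. Its organs did not overlap, but it missed the threshold (at least 3.26-fold higher readings in ovary, limma adjusted p = 0.0559), with both testis pools at background. The fitted log2 difference of ovary minus testis was 2.40, with a 95% interval of 0.75 to 4.06 that rests on testis values below background. The antisense probe set passed with a variance trend (0.0285), with medians centred (0.0161) and among probe sets above background (0.0116). With a pool left out its difference of testis minus ovary, as read, ran from -2.98 to -1.83. The sense probe set was not called when testis pool 1 or 2 was left out (0.0563 and 0.0572).

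HNRNPK on Z read 9.952 and 9.999 in ovary and 12.11 and 12.06 in testis with its brightest probe set. Pools of an organ agreed closely, and testis was 4.31-fold higher (log2 2.11, SE 0.034, limma adjusted p = 0.000879). The call stayed with each pool left out (adjusted p from 0.00919 to 0.0207). The probe set's name shares a cluster number with HNRNPKL's brightest probe set. That W probe set read near background in the testis pools, where HNRNPK was brightest. Whether either probe set also reads the other copy was not tested. The other HNRNPK probe sets, a sense probe set (2.81 to 2.92) and its antisense counterpart (2.55 to 2.60), were below background in all 4 pools and were not called (adjusted p = 0.400 and 0.544).

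UBAP2 encodes a protein with a ubiquitin-associated domain, and it was the Z partner called higher in ovary. Its single probe set read 10.82 and 11.04 in ovary and 7.83 and 7.55 in testis. Whether it also reads transcripts of the W copy was not tested, and the same holds for the other Z probe sets. Ovary was higher by 3.24 on the log2 scale (SE 0.15), or 9.43-fold, with no overlap (limma adjusted p = 0.00347). The call stayed with each pool left out (adjusted p from 0.0171 to 0.0435). The 7 probe sets of Z partners do not include that of HINT2. Of the 7, 4 passed toward testis and 1, that of UBAP2, toward ovary. These counts stand beside 17.4% and 18.2% of all probe sets and 32.2% and 12.01% of Z-linked ones.

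UBAP2L2, the W copy, had the most probe sets and the least even readings. The probe set brightest in ovary read 7.77 and 7.74 in ovary and 2.04 and 2.98 in testis, at least 21.6-fold higher in ovary (limma adjusted p = 0.00791). This call stayed with each pool left out (adjusted p from 0.0117 to 0.0409). The one brightest over all pools read 6.999 and 5.66 in ovary and 6.94 and 7.76 in testis. It was well above background in both testis pools, the only 1 of the 15 W probe sets to be so, and the organs overlapped (testis minus ovary 1.02, 95% interval -1.23 to 3.27, adjusted p = 0.417). That it reads UBAP2L2 rests on the platform annotation and was not checked here. A male has no W, so its testis readings are not those of a W gene. Another was above background in ovary pool 1 alone (4.64, against 2.63 in ovary pool 2 and 2.22 and 2.26 in testis; adjusted p = 0.392). Its difference of testis minus ovary was -0.38 without ovary pool 1, where all remaining readings were below background, and -2.40 without ovary pool 2. The others (2.47 to 2.50 and 2.46 to 2.48) were below background throughout. A further probe set named for both UBAP2 and UBAP2L2 read between 2.25 and 2.39 and was not assigned.

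**Figure D2:**
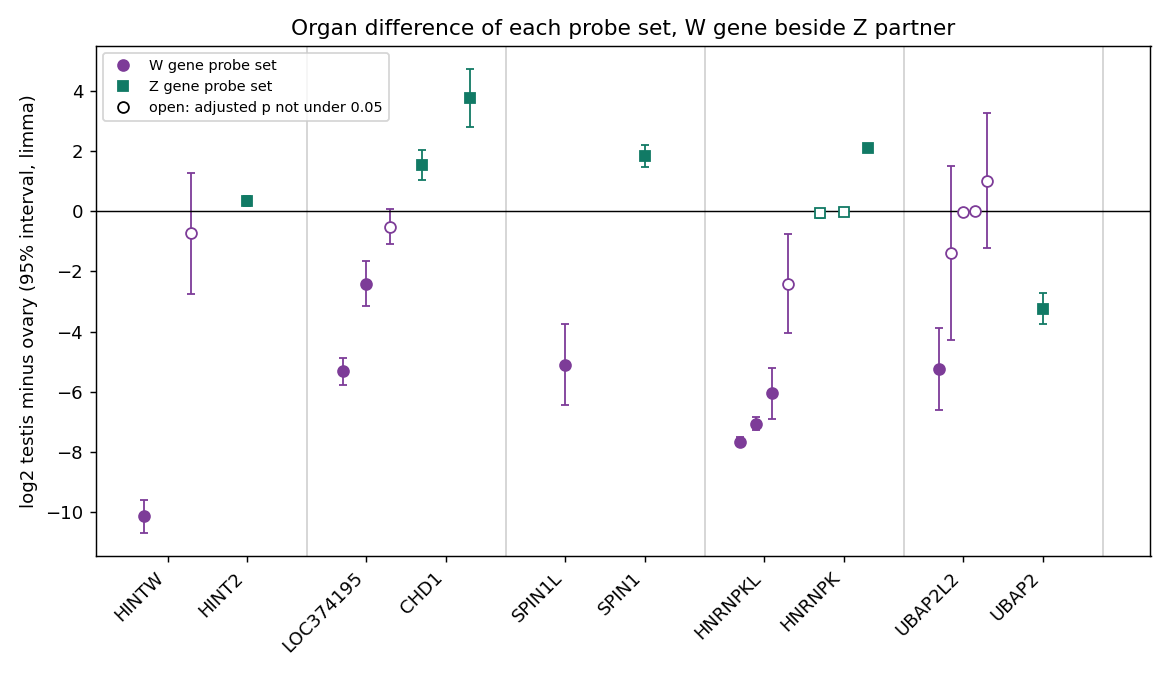
Difference of log2 testis minus ovary (vertical axis) of each probe set, with the W gene (purple circles) beside its Z partner (green squares; HINT2 stands in for HINT1). Bars are limma 95% intervals, and open symbols were not called. Values with testis at background are plotted as read, although the W difference is then a bound. Filled W symbols lie between -10.15 and -2.41, and filled Z symbols lie above 0 except UBAP2 at -3.24.

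Each W gene was set against its partner within each array, each gene by its brightest probe set, and that difference was compared between organs. Its level reflects 2 probe sets and is not read by itself. The partner was measured in 4 of the 5 pairs, and HINT2 stood in for HINT1. Where a W gene was at background in testis its value there was set to the background level, and the shift is a lower bound. LOC374195 minus CHD1 was 2.37 and 2.11 in ovary and at most -6.14 and -6.49 in testis, a shift of at least 8.56 on the log2 scale (9.09 with the values as read). SPIN1L minus SPIN1 was -1.85 and -1.03 in ovary and at most -8.06 and -8.28 in testis, a shift of at least 6.73 (6.95 as read). HNRNPKL minus HNRNPK was 1.15 and 1.19 in ovary and -8.63 and -8.57 in testis, a shift of 9.77. HNRNPKL's testis readings lay just above the background level and were used as read. They were below the brightest probe set for other sequences, so background limits this shift and its W part too. In these 3 pairs, and in HINTW with HINT2 (shift of at least 10.08, or 10.50 as read), the W gene was lower and the Z gene higher in testis (for HINT2 with the limits above), so that both parts of the shift had the same sign. The Z part was 3.77 for CHD1, 1.84 for SPIN1, 2.11 for HNRNPK and 0.34 for HINT2. The W part was at least 4.78 for LOC374195, at least 4.89 for SPIN1L, 7.67 for HNRNPKL and at least 9.73 for HINTW. Because a male has no W, the sign of the W part was fixed by the design and is not a finding.

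The UBAP2L2 pair turned on the probe set taken. With the brightest over all pools, the shift was -4.26. The testis readings of that probe set are not those of a W gene, and its annotation was not checked. With the one brightest in ovary, chosen after the values were seen, it was at least 1.195 (2.01 as read), from ovary minus testis differences of at least 4.43 for UBAP2L2 and of 3.24 for UBAP2, both toward ovary. Exact permutation, two-sided, gave p = 0.333 for each of the 5 pairs under either choice. This is the smallest that 2 pools against 2 allow, so that no pair could pass a threshold.

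The gene table placed 17 genes with 39 probe sets on W, and 12 of the genes had at least 1 probe set called higher in ovary (limma). Of the 39 probe sets, 18 were called higher in ovary and 0 in testis, beside 18.2% and 17.4% of all probe sets. With an unadjusted p under 0.05 the counts were 23 and 0, beside 8205 and 7924 of all 38382. Among the 12 genes other than the 5 above, 7 had such a probe set. UBE2R2L, named as a relative of the ubiquitin-conjugating enzyme gene UBE2R2, read 9.59 and 9.67 in ovary and 2.10 and 2.14 in testis (adjusted p = 0.000341). Its second probe set read 8.65 and 7.78 in ovary and 2.49 and 2.48 in testis (adjusted p = 0.00589). UBE2R2 on Z was higher in testis (log2 1.39, SE 0.24, adjusted p = 0.0385), the same direction as CHD1, SPIN1 and HNRNPK. The UBE2R2 call was kept under 7 of 12 alternatives and lost without testis pool 1 (0.229) or testis pool 2 (0.207), with no moderation (0.111), a floor (0.071) and the pool block (0.0864). LOC427025, with the synonyms NIPBL and SCC2W, was dim, at 4.04 and 3.76 in ovary and 2.78 and 2.84 in testis (adjusted p = 0.0166). LOC430910 read 10.87 and 11.02 in ovary and 3.06 and 3.08 in testis (adjusted p = 0.000476). LOC426615 read 8.82 and 8.84 in ovary and 2.39 and 2.45 in testis (adjusted p = 0.000341), and LOC107049459 read 8.68 and 8.52 against 2.64 and 2.67 (adjusted p = 0.000645). MBD2, placed on W by the table, was not called and read 9.08 and 8.30 in ovary and 9.44 and 9.24 in testis (adjusted p = 0.319). The brightest NEDD4L probe set read 8.22 and 8.35 in ovary and 8.20 and 8.15 in testis (adjusted p = 0.372). None of the 5 NEDD4L probe sets was called, with testis minus ovary from -0.83 (limma adjusted p = 0.0845) to 0.017 (0.981). A male has no W, so the testis readings of MBD2 and NEDD4L are not those of W genes. Their placement and annotation were not checked, and both stay in the counts above. LOC427025, MBD2 and NEDD4L were singled out after their values were seen.

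**Figure D3:**
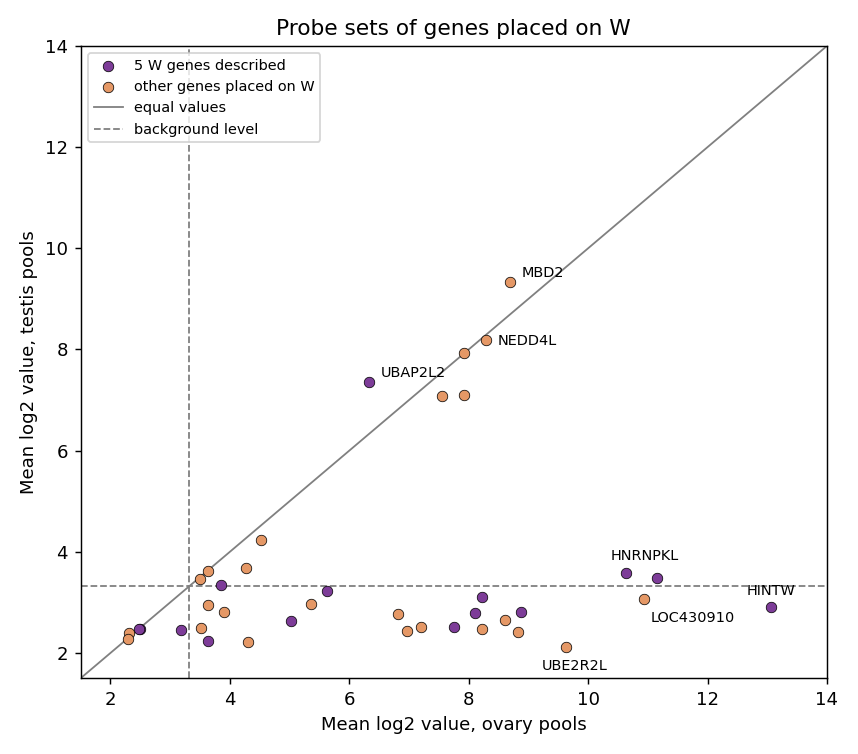
Mean log2 value in the testis pools (vertical) against the ovary pools (horizontal) for the 39 probe sets of genes placed on W. Purple points belong to the 5 W genes described and orange points to others, dashed lines mark the background level and the grey line marks equal values. Most bright points lie along the bottom right, and MBD2, NEDD4L and 1 UBAP2L2 probe set lie near the line of equal values.

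The Z partners were set beside the rest of their chromosome, a gene being read by its brightest probe set. Among 605 other Z-linked genes the median difference of log2 testis minus ovary was 0.38. It was 0.038 over all their probe sets and 0.68 over genes above background. Of the 605, 249 passed toward testis (41.2%) and 100 toward ovary (limma). Of the 511 above background, 246 passed toward testis (48.1%) and 100 toward ovary (19.6%). Autosomal genes had a median of -0.017, with 23.5% higher in testis and 29.3% in ovary (29.1% and 36.5% of those above background). A call toward testis was thus common on Z, and the calls of CHD1, SPIN1 and HNRNPK are read against those Z shares. HINT2, which stood in for HINT1 above, is counted here among the 605 and not among the Z partners. Its difference of 0.34 was below the median of the 605. CHD1's difference of 3.77 exceeded those of 566 of the 605 genes (93.6%), HNRNPK's 2.11 those of 490 (81.0%) and SPIN1's 1.84 those of 463 (76.5%). CHD1's place depends on the probe set taken: its other probe set differed by 1.54, less than SPIN1, and was not ranked. UBAP2's exceeded those of only 15 (2.48%).

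**Figure D4:**
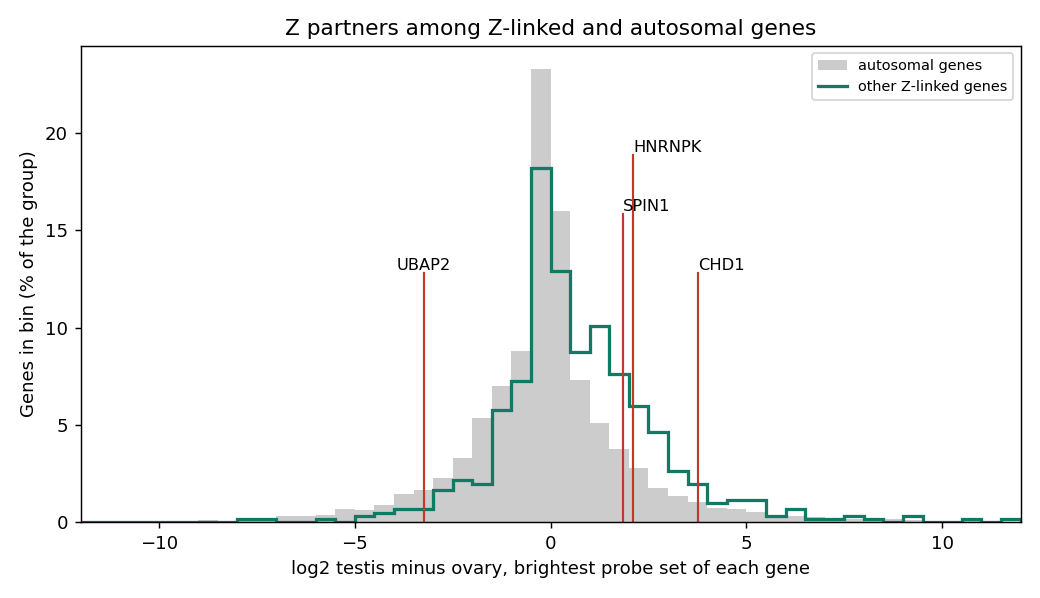
Share of genes (vertical axis, % of each group) by difference of log2 testis minus ovary (horizontal axis, bins of 0.5) for autosomal genes (grey) and other Z-linked genes (green line). Red lines are the Z partners, and HINT2 is counted among the other Z-linked genes. The Z-linked genes are displaced toward testis, and UBAP2 at -3.24 lies in their left tail.

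Genes next to the Z partners on the chromosome gave a mixed picture. Of the 3 measured genes on either side of HNRNPK, 5 of 6 were called higher in testis (limma), among them the kinesin gene KIF27 (log2 6.36, adjusted p = 0.00103) and RMI1 of the BLM helicase complex (1.62, adjusted p = 0.0103). The sixth, C9orf64, differed by 0.94 and was not called (adjusted p = 0.105). Around CHD1, 1 was higher in testis (FAM174A, 1.17, adjusted p = 0.00475) and 1 in ovary (PAM, -1.12, adjusted p = 0.00432). Around SPIN1, CFC1 (1.92) and NXNL2 (2.04) were higher in testis and S1PR3 in ovary (at least 1.51-fold, testis at background). UBAP2 stood beside UBE2R2 (1.39) and near KIF24 (7.65, adjusted p = 0.00367, above background in 1 of 2 ovary pools), both higher in testis, and near AQP3, an aquaporin gene, which was higher in ovary by at least 9.76-fold, with both testis pools at background (adjusted p = 0.000531). Around UBAP2, 3 of 6 passed toward testis and 1 toward ovary. The neighbour counts stand beside 41.2% toward testis and 16.5% toward ovary of the other Z-linked genes, or 48.1% and 19.6% of those above background. Whether they differ from these shares was not tested.

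**Figure D5:**
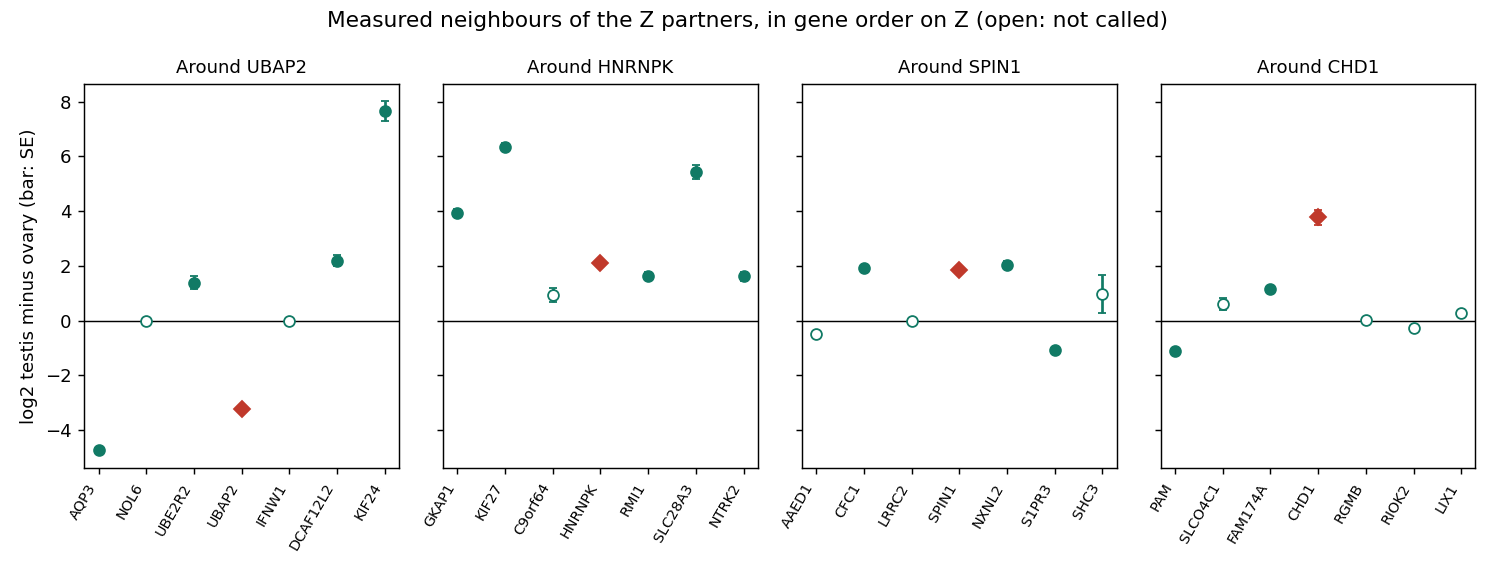
Difference of log2 testis minus ovary (vertical axis) of the 3 measured genes on either side of each Z partner, in gene order on Z (horizontal axis). Red diamonds are the Z partners, green circles the neighbours, bars standard errors and open symbols genes not called. All neighbours of HNRNPK lie above 0, while those of UBAP2 run from -4.71 to 7.65. Values below background are plotted as read.

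Further genes were listed as candidates for having a W copy, a property that was not checked in the sources used here. Of 30 listed, 20 were measured and placed on Z, and 9 of these were called higher in testis, 3 in ovary and 8 in neither (limma), with a median of 0.68. Among those called higher in testis were the creatine kinase gene CKMT2 (at least 951-fold, adjusted p = 0.000334), KIF24 (log2 7.65), TMEM161B (log2 5.25, adjusted p = 0.00501) and ST8SIA3 (at least 3.70-fold, adjusted p = 0.0134). For CKMT2 and ST8SIA3 both ovary pools were at background. DOCK8, measured in both organs, was 4.01-fold higher in testis (adjusted p = 0.0138). Those higher in ovary were the thioredoxin gene TXN (-1.31, adjusted p = 0.0052), SMAD7, an inhibitor of TGF-beta signalling (-0.67, adjusted p = 0.0424), and TXNL1 (-0.46, adjusted p = 0.038). The 9 of 20 toward testis stand beside 41.2% of the other Z-linked genes, or 48.1% of those above background.

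Relatives of the members, by protein family or by name, were measured for 24 of 38 listed genes, all but HINT2 outside Z and W. By limma 8 were called higher in testis, 4 in ovary and 12 in neither, with a median of 0.13. Of the 24, 23 were above background. The shares of 33.3% toward testis and 16.7% toward ovary stand beside 29.1% and 36.5% of autosomal genes above background. Whether these shares differ was not tested. The 8 include HINT2, whose call was kept under only 4 of 12 alternatives. Among the genes with CHD names, CHD1L (2.58, adjusted p = 0.00097) and CHD9 (1.98, adjusted p = 0.0112) were higher in testis and CHD4 (-2.10, adjusted p = 0.00262) and CHD7 (-0.64, adjusted p = 0.0117) in ovary. Among the ribonucleoprotein genes HNRNPA2B1 (1.66, adjusted p = 0.00402), HNRNPM (0.78, adjusted p = 0.00931) and HNRNPD (0.38, adjusted p = 0.0265) were higher in testis, and HNRNPA1 (-1.14, adjusted p = 0.00872) and SYNCRIP (-0.41, adjusted p = 0.0107) were higher in ovary. PCBP3, a further KH domain gene, was higher in testis by at least 6.30-fold, with ovary at background (adjusted p = 0.000832). UBAP2L, singled out as the listed relative closest to UBAP2 by name, lay at log2 3.11 in ovary and 2.92 in testis, below background, and was not called (adjusted p = 0.291).

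The genes with the most similar readings were found by Euclidean distance of log2 values over the 4 pools, among 12555 genes with a name other than a placeholder. Such a distance includes how strongly each probe binds, and it is a description of 4 arrays. For HINTW, HNRNPKL, LOC374195 and SPIN1L, dim testis readings are a given of the design, because a male has no W. Their nearest genes are therefore bound to be dim in testis, and no shared cell type is read from them. Nearest to HINTW were GDF9 (distance 0.80), an oocyte growth factor gene, CYP19A1 (0.89), the aromatase gene, and SGK2 (1.02). GDF9 and CYP19A1 were also on the ovary marker list. Nearest to HNRNPKL were IL4 (0.51), SLC15A1 (0.72) and SPIRE1L (0.92), and to LOC374195 CHST9 (0.29), FTO (0.34) and MCF2L (0.34). FTO (0.44) was also among the nearest to SPIN1L, after EAF2 (0.44) and before EPHA6 (0.51). For the Z genes, USP42 (0.22), CCDC112 (0.35) and NRG4 (0.43) lay nearest to CHD1, and TOMM5 (0.22), CDKN3 (0.23) and CCDC15 (0.26) to SPIN1. IFT46 (0.17), PTGR1 (0.18) and ATRX (0.23) lay nearest to HNRNPK. TMEM230 (0.063), HK1 (0.24) and SLC35E3 (0.27) lay nearest to UBAP2. CCDC112, TOMM5 and PTGR1 are themselves on Z as the gene table places them. For UBAP2L2, by the probe set that was bright in testis, the nearest were RPTOR (0.64), SLC25A25 (0.76) and DDI2 (0.79). The annotation of that probe set to a W gene was not checked, so these are not read as nearest to the W copy.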

How the data were processed

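Each pool of RNA was read on 1 array. The deposited values are on the log2 scale, 1 per probe set and array. The submitters' processing notes name GCRMA and MAS5, without role, order or version, and the series design names affyPLM for array checks. Genome build: not given in the sources used here. Of 38535 probe sets, 153 controls were left out. Probe sets took symbols from the platform annotation (27166 with 1 symbol, 177 with several, left unnamed) and chromosomes and gene order from a gene table of assembly GRCg7b, with 26851 matched by gene number, 308 by symbol and 7 not matched. A gene with several probe sets was represented by the brightest over the 4 arrays where 1 value was needed.

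Testis minus ovary was fitted by limma 3.58.1 in R 4.3.3 (lmFit, eBayes, two-sided) without covariates, with 2 residual and 0.741 prior degrees of freedom. The fit was also run on simulated data whose spreads were shuffled over probe sets without regard to level. That run cannot tell how the fit treats readings at background and is not used as support. P-values measure only the spread between pools, and precision is limited by how few arrays there are. With a pool left out, 1 organ has a single pool, so those adjusted p-values rest on the spread of the other organ's 2 pools. For most W probe sets without an ovary pool, that spread is between testis readings at background. A fold is "at least" where 1 organ was at or below background in both pools, and is then the brighter mean over the background level. Members and lists were chosen with earlier results of these data known. Every member probe set is reported, with the called genes of largest difference from other lists, up to 4 per direction, by fitted difference, and a few more named after their values were seen (DOCK8, HNRNPM, HNRNPD, UBAP2L). The 3 nearest genes by Euclidean distance and the Z neighbours are given too, the latter chosen after earlier results were known. Alternatives were other moderation, quantile and median scaling, a dim filter, a floor, a pool block, and each pool left out. Member sequences were not used here.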

Additional observations from a re-analysis of the deposited data

How the results depend on the processing

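No call of a member changed direction. Quantile scaling, robust moderation, a floor at background and the replicate block (5874 ovary-higher and 5506 testis-higher probe sets, against 7000 and 6666) left all 22 member probe sets on their side of the threshold. Pools share only a number (correlation of deviations 0.052). No moderation gave 4570 and 4284 over the whole table. With a pool left out these counts ran from 3734 to 6449 and from 4053 to 6007, the count of ovary-higher W probe sets from 5 to 12, and that of testis-higher Z probe sets was 3 each time. Without _s_at names, 6 W probe sets were called higher in ovary. By the mean of all probe sets the W minus Z shift was 5.79 for HINTW with HINT2, 5.41 for LOC374195 with CHD1, -2.11 for UBAP2L2 with UBAP2 and 6.47 for HNRNPKL with HNRNPK. With the probe set brightest in ovary, a choice added after the data were seen, it was 6.87 for LOC374195 with CHD1 and reversed to 2.01 for UBAP2L2 with UBAP2 (1.195 with the floor as well). With the floor it was 10.08 for HINTW and 8.56 for LOC374195, the bounds given above. The choices differ in the probe sets or values taken in, and what moved each shift was not tested. The means for UBAP2L2 and HNRNPK include probe sets below background in all pools. Median differences over all probe sets were 0.038 for other Z-linked genes and 1.54 for Z partners. Medians of Z partners rest on 4 genes, and HINT2 is counted with the other Z-linked genes. With medians centred they were 0.31 for other Z-linked, -0.087 for autosomal and 1.90 for Z partners. Above background only they were 0.68 for other Z-linked and -0.14 for autosomal genes. With a pool left out they ran from 0.297 to 0.392 for other Z-linked genes and from 1.93 to 2.02 for Z partners. With background at its highest single value (3.97) the bounds were 544-fold for HINTW, 19.0-fold for SPIN1L and 17.6-fold for LOC374195. No such bound was computed for the 203-fold and 134-fold differences of HNRNPKL, whose testis readings were below that value. Values near background limit every W fold.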
